A study of Mus musculus with 4 samples.

Results

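The clustered canonical histone genes are the rows whose symbol begins with Hist1h, Hist2h, Hist3h or Hist4h in the deposited expression lists, and 58 of the 28250 listed genes met this rule. By cluster, 49 belonged to Hist1, 6 to Hist2, 2 to Hist3 and 1 to Hist4. By family, 5 coded for H1, 14 for H2A, 16 for H2B, 10 for H3 and 13 for H4. TBV2, a feeder-dependent mouse embryonic stem cell (ESC) line, was kept with LIF and exposed for 24 h to solvent (2 libraries) or to 5 µM MS-275 (2 libraries). MS-275 is a benzamide that inhibits class I histone deacetylases. TBV2 was used as wild type and as an EGFP-transgenic line in the study, and which of them gave the RNA is not given in the sources used here. RNA was taken after poly(A) selection and sequenced from random hexamer primers without strand information. The labels do not say whether the replicates were separate cultures, so p-values measure only the spread between these libraries, which may be technical.

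H2A, H2B, H3 and H4 form the core of the nucleosome and H1 binds the linker DNA. Their clustered genes are read mainly in S phase, when new DNA must be packed, and their mRNAs usually end in a short stem-loop instead of a poly(A) tail. The stem-loop is bound by SLBP, and the cut behind it needs the U7 particle. Some of the same genes also give polyadenylated mRNAs that run past the stem-loop, and these are known from cells that have left the cycle. Poly(A) selection keeps such forms and loses most stem-loop mRNAs. The values below are therefore levels of poly(A)-selected RNA, and they cannot be read as total histone mRNA.

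A stem of 6 base pairs around a loop of 4 bases was found within 200 bases of the coding end in 55 of the 58 genes on mm9, from 24 to 58 bases after the last sense codon. None was found for Hist1h2al, Hist1h2an and Hist2h2be. The 5 forms carried by more than 1 gene are shown because the same element marks the point from which alignments were counted on either side. The stem is in capitals, the loop is in lower case, and the DNA is written on the gene strand. The Hist3h2ba element lies at chr11:58762851-58762866 and its form was shared by 31 H1, H2A, H2B and H3 genes. The form of Hist1h1t, at chr13:23788394-23788409, was shared by 9 genes. The forms of Hist1h4c, Hist1h4i and Hist1h4b were found in 8, 2 and 2 H4 genes and in no other family.
Hist3h2ba: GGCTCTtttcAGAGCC
Hist1h1t: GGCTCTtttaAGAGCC
Hist1h4c: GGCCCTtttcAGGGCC
Hist1h4i: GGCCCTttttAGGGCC
Hist1h4b: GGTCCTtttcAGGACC

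Promoters, taken from RefSeq on GRCm38.p6 as the 250 bases before the annotated start, were matched for 51 genes by Entrez identifier. The letters TATAAA stood on either strand in 28 of them, against 12.4% of all 32851 promoters of that length. CCAAT stood in 42, against 33.8% of all. Every matched H1, H2A, H2B and H3 promoter held it, and 3 of 12 H4 promoters did. The octamer ATTTGCAT was found in 6 H2A and 6 H2B promoters and in no H1, H3 or H4 promoter, against 1.6% of all. H2A and H2B genes that lie head to head share their promoter, so these are partly the same bases. AAACACA, named the H1 box, was found in 4 of 5 H1 promoters, against 6.25% of all. It also stood in 2 of 13 H2A and 2 of 13 H2B promoters, and in no H3 or H4 promoter. No motif contains another, and a match is a description of letters and not of a bound site. The 3 promoters below belong to the gene with the largest change, to the head-to-head pair of testis histones Hist1h2aa and Hist1h2ba, and to the testis linker histone. Motifs are in capitals. The Hist3h2ba promoter is at chr11:58948661-58948910 (plus strand), that of Hist1h2aa at chr13:23934187-23934436 (plus strand), and that of Hist1h1t at chr13:23695561-23695810 (plus strand).
Hist3h2ba: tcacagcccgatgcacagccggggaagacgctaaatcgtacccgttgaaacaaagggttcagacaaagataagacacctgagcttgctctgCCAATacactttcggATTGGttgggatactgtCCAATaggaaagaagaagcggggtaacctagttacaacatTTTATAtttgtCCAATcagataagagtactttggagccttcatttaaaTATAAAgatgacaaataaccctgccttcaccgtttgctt
Hist1h2aa: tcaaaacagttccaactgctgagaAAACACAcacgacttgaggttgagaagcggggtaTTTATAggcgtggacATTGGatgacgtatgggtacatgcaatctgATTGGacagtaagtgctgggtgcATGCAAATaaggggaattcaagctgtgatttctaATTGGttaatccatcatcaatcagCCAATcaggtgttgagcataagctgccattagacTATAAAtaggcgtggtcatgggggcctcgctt
Hist1h1t: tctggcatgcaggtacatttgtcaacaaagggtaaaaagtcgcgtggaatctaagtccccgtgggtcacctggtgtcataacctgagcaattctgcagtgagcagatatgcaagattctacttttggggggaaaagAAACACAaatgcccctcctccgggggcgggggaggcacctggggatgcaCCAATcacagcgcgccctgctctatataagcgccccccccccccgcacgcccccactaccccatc

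The deposited value of a gene is a normalised expression value (NE). NE of the histone genes was reproduced by 10000000 times the alignments on the exons, divided by the alignments of the library and the exon length, but with the alignments deposited for the other replicate of the same condition. For that pairing of files the median absolute log2 ratio was between 0.0111 and 0.0738 over 22 to 50 histone genes, and for values and alignments of the same library it was between 0.762 and 0.891. The authors' own marks run the same way: the values of replicate 1 are headed OLD in both conditions, and the alignments deposited with replicate 1 are marked NEW. NE of the histone genes thus behaved as a count per exon length. The share of exon stretches that occur once ran from 6.05% (Hist1h4n) to 100% (Hist1h1a). NE makes no allowance for this, so comparisons of NE between genes below are rough and describe the deposited values. Over all genes the match was looser. The median absolute log2 ratio was 0.406 and 0.417 for the solvent values with the other replicate and 1.03 and 0.610 with the same library. The signed median with the other replicate was 0.396 and 0.3995 over all genes, against 3.33e-05 and 1.53e-05 over the histone genes. The alignments that matched the values of replicate 1 repeated no position (9785619 for solvent and 10915650 for MS-275). Those that matched the values of replicate 2 repeated a position in 53.2% of 23467935 alignments (solvent) and in 54.4% of 20008841 (MS-275). The leading changes are therefore also given at distinct alignment positions, in the order of the deposited alignments. Almost all alignments on histone exons lay where a stretch of 35 bases occurs once in the genome (99.3 to 100% per library), while only 45.0% of the stretches between coding start and stem-loop are of this kind. For Hist1h4n, 1.94% of the coding stretches occur once, so reads from near-identical copies were mostly not placed and the levels of H2A, H2B, H3 and H4 copies are uncertain.

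By NE as deposited, histone genes lay near the middle of the range of all listed genes. The median NE of the 58 genes was 0.00615 and 0.00556 with solvent and 0.0119 and 0.0192 with MS-275 (replicates 1 and 2 here and below). That placed it between percentile 46.1 and percentile 55.5 of all listed genes. The summed NE was 0.872 and 0.770 with solvent and 1.47 and 2.93 with MS-275, so both treated libraries lay above both solvent libraries, and the ratio of the means was 2.68. The sum was dominated by few genes. Hist1h2bc alone held 62.0% and 64.2% of the H2B sum with solvent and 40.5% and 47.7% with MS-275. Hist1h1c held between 64.9% and 76.1% of the H1 sum in every library. Of the 58 genes, 9 and 3 were listed at 0 with solvent and 4 and 2 with MS-275.

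**Figure D1:**
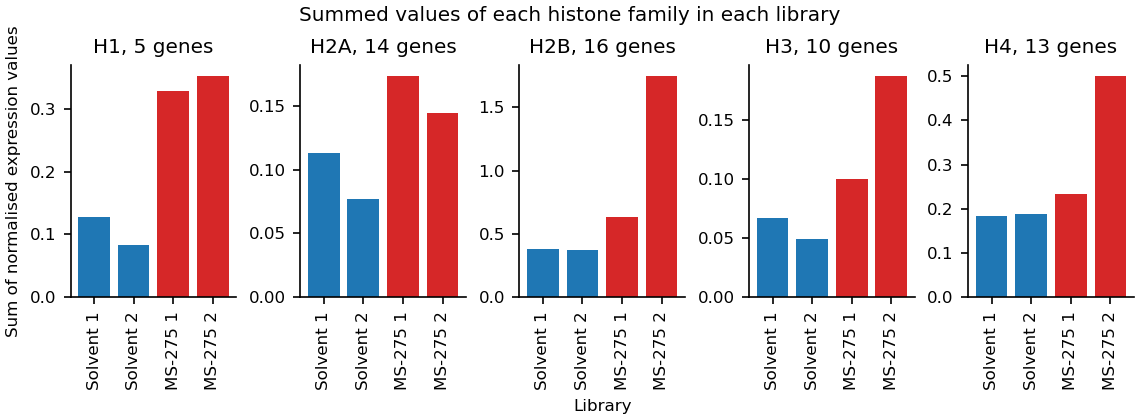
Sum of the normalised expression values of each histone family (y axis, linear from 0, with its own scale in each panel) in the 2 solvent (blue) and 2 MS-275 libraries (red). Both treated bars stand above both solvent bars in each of the 5 families, and H2B reaches 1.75 in MS-275 replicate 2 against 0.381 and 0.372 with solvent.

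The first question was whether MS-275 changed these genes. A value of at least 0.001 in 2 or more libraries was found for 56 of them, and 20336 genes in all were tested (limma on log2(NE + 0.005), a scale that understates changes of low genes). Without pairing of the libraries, 0 of 56 histone genes passed an adjusted p of 0.05 in either direction, where 0.00492% of all tested genes passed as higher and 0% as lower. At an unadjusted p under 0.05, 13 histone genes were higher and 0 lower, against 2974 and 564 of all genes. With the libraries paired by replicate number (replicate block), 26 of 56 rose and 0 fell. In this paired fit 21% of all tested genes were called higher and 6.46% lower. Another scaling moved the split of all calls, from 4277 higher and 1314 lower to 3328 and 2781 with median-ratio scaling and to 2936 and 2961 with quantile normalization. The histone genes called in those paired fits were 18 and 11, all higher.

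The median log2 fold change was 0.68 over the 56 histone genes and 0.20 over all tested genes, a difference of 0.49. Median-ratio scaling set the median of all genes to -0.01 and left this difference at 0.52, and quantile normalization set it to -0.03 and left 0.26. In each of the replicate pairs the treated value was the higher one for 40 genes and the lower one for 1, where 50% and 26.5% of all tested genes did so. Both treated values exceeded both solvent values in 31 genes, against 32.3% of all, and both were below in 0, against 12%. At least 10 distinct alignment positions in 2 libraries were available for 24 histone genes. Hist1h1t, Hist1h2ai and Hist1h2bh met this only through the MS-275 libraries, with 1 and 2, 6 and 9, and 3 and 2 positions with solvent. The filter thus favoured a call of higher for these genes. On the counts of distinct positions limma-voom called 5 higher without the block (11.8% of all genes tested this way) and 10 with it (23.7%). It called 0 lower in either fit, where 7.53% and 21.1% of all genes were. At an unadjusted p under 0.05 the 2 fits had 9 and 11 of the 24 histone genes higher and 0 lower. Over all 17582 genes tested this way 3473 and 4654 were higher, and 2721 and 4293 were lower. All 10 genes called on these counts with the block were also among the 26. For Hist1h1t, Hist1h2ai and Hist1h2bh the filter made this more likely. Of the 26, 15 could be tested this way. Hist1h2bc, Hist1h2bg, Hist1h3c, Hist1h3g and Hist1h4d did not pass there with the block.

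**Figure D2:**
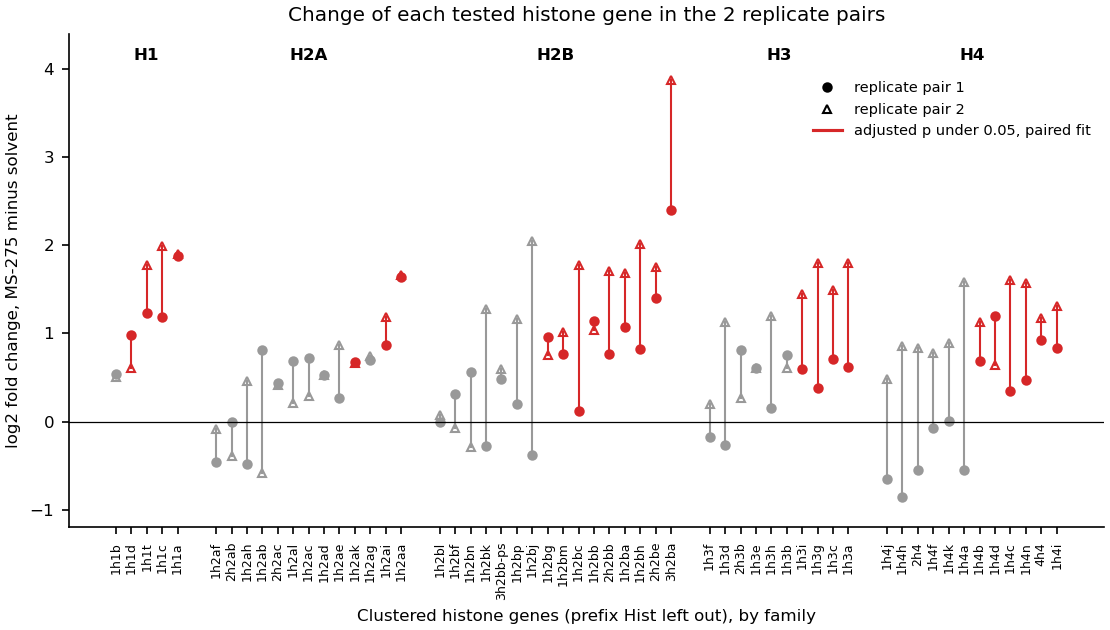
Log2 fold change of NE + 0.005 (y axis) of each of the 56 tested histone genes (x axis, grouped by family and ordered by mean change) in replicate pair 1 (filled circles) and pair 2 (open triangles). Red marks the 26 genes with an adjusted p under 0.05 in the paired fit, all with both points above 0, and Hist3h2ba stands highest.

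In the H1 family 4 of 5 genes rose in the paired fit, where 21% of all tested genes were called higher. The family median log2 fold change was 1.51. Hist1h1c, coding for a main somatic linker histone, had an NE of 0.0907 and 0.0637 with solvent and of 0.213 and 0.268 with MS-275. Both treated values were more than the higher solvent value, and the log2 fold change was 1.59 ± 0.39 (adjusted p = 0.0791 unpaired, 0.000195 paired). Here and below, ± gives the SE of the unpaired fit, also where a paired p stands beside it. Hist1h1a, another replication-dependent H1, changed by 1.89 ± 0.60 from 0.0137 and 0.0108 to 0.0638 and 0.0542 (adjusted p = 0.144 unpaired, 0.000262 paired), and its groups did not overlap. At distinct positions Hist1h1a went from 17 and 10 to 55 and 52, and Hist1h1c from 133 and 117 to 302 and 312. Hist1h1d had 0.00518 and 0.00344 with solvent and 0.0151 and 0.00790 with MS-275, with a paired adjusted p of 0.0443, and its call was lost with either scaling. Without MS-275 replicate 1 its log2 fold change was 0.48. Hist1h1b did not pass: its values were 0.0154 and 0.00525 against 0.0245 and 0.00957, and the groups overlapped.

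The testis histones were near the lower end of the values with solvent. Hist1h1t, a linker histone of spermatocytes, had 0.00225 and 0.00047 with solvent and 0.0121 and 0.0138 with MS-275. The log2 fold change was 1.51 ± 0.37 (adjusted p = 0.0787 unpaired, 0.000725 paired), from 1 and 2 distinct positions to 22 and 12. Hist1h2aa (TH2A) had 0.00262 and 0.00546 with solvent against 0.0188 and 0.0282, and Hist1h2ba (TH2B), its head-to-head neighbour 305 bases away between coding starts, had 0.00532 and 0.00222 against 0.0167 and 0.0182. Their log2 fold changes were 1.65 ± 0.53 and 1.38 ± 0.48 (paired adjusted p = 0.000718 and 0.00278; unpaired 0.147 and 0.172). The groups did not overlap for any of these 3 genes. The solvent alignments numbered 1 and 1 distinct positions for Hist1h2aa and 2 and 2 for Hist1h2ba, so both folds have a wide counting error that the limma SE does not show.

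H2B held the gene with the largest change, and 9 of 16 genes passed in the paired fit, against 21% of all tested genes called higher. Hist3h2ba, an H2B gene of the small Hist3 cluster, had an NE of 0.0198 and 0.0344 with solvent and of 0.126 and 0.572 with MS-275. The treated values were both above the solvent values but far from each other. The log2 fold change was 3.14 ± 0.66 (adjusted p = 0.0645 unpaired, 4.23e-06 paired). At distinct positions it went from 36 and 12 to 136 and 86, with a log2 fold change of 2.21, and it passed there without the block. Without MS-275 replicate 2 the log2 fold change on the values was 2.06 (adjusted p = 0.337), and without replicate 1 of MS-275 it was 4.21 (0.0902). The higher treated value corresponded to 720 alignments at those 136 positions. Its percentile among all genes was 55.8 and 65.1 with solvent and 74.9 and 94.7 with MS-275. The other Hist3 row, the pseudogene Hist3h2bb-ps, had 0 and 0.00183 with solvent against 0.00197 and 0.00537 and did not pass.

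Hist1h2bc had the highest level of all histone genes, 0.236 and 0.239 with solvent and 0.256 and 0.833 with MS-275. The first treated value lay just above the solvent values and the second far above them (log2 fold change 0.95 ± 0.56, adjusted p = 0.458 unpaired, 0.0320 paired). Without MS-275 replicate 2 it was 0.11, and without MS-275 replicate 1 it was 1.79. At distinct positions the change was from 165 and 172 to 241 and 215, and the gene did not pass there (paired log2 fold change 0.35, adjusted p = 0.149). The annotated second exon, at chr13:23784045-23784357 on mm9, held 137 and 146 distinct positions with solvent and 207 and 186 with MS-275, and the first exon with the coding sequence held between 26 and 34. Of the coding stretches of this gene 8.20% occur once in the genome, so reads there could hardly be placed and the counts of the 2 exons cannot be compared with each other. Hist2h2bb, the next member with a second exon, had 2 and 16 positions there with solvent and 10 and 49 with MS-275. Hist1h2bp had between 6 and 8 in its second exon in every library.

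Hist2h2be, for which no stem-loop was found in the search window, had 0.0230 and 0.00830 with solvent and 0.0691 and 0.0399 with MS-275. The groups did not overlap, the log2 fold change was 1.58 ± 0.67 (adjusted p = 0.260 unpaired, 0.00115 paired), and distinct positions went from 41 and 60 to 156 and 197. Hist2h2bb had 0.0373 and 0.00864 against 0.0669 and 0.0395, so its groups were set apart by little. Hist1h2bh had 0.00730 and 0.00330 with solvent and 0.0168 and 0.0287 with MS-275. Hist1h2bb, Hist1h2bg and Hist1h2bm also passed in the paired fit, with log2 fold changes of 1.09, 0.86 and 0.89. With 1 library left out the lowest log2 fold changes were 0.40 for Hist1h2bg (without solvent replicate 1) and 0.34 for Hist1h2bm (without MS-275 replicate 2). Without solvent replicate 2 they were 0.42 for Hist2h2bb and 1.04 for Hist2h2be. Hist1h2bg also lost its paired call with pseudocounts of 0.001 and 0.02, with either scaling and on distinct positions. H2B as a whole had 7 calls with median-ratio scaling and 6 with quantile normalization, both with the block. Those fits called 3328 and 2936 of all 20336 tested genes higher. Hist1h2bm overlapped between groups (0 and 0.00407 against 0.00350 and 0.0134). Hist1h2bg was apart by little, with 0.0201 as its higher solvent and 0.0209 as its lower treated value.

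**Figure D3:**
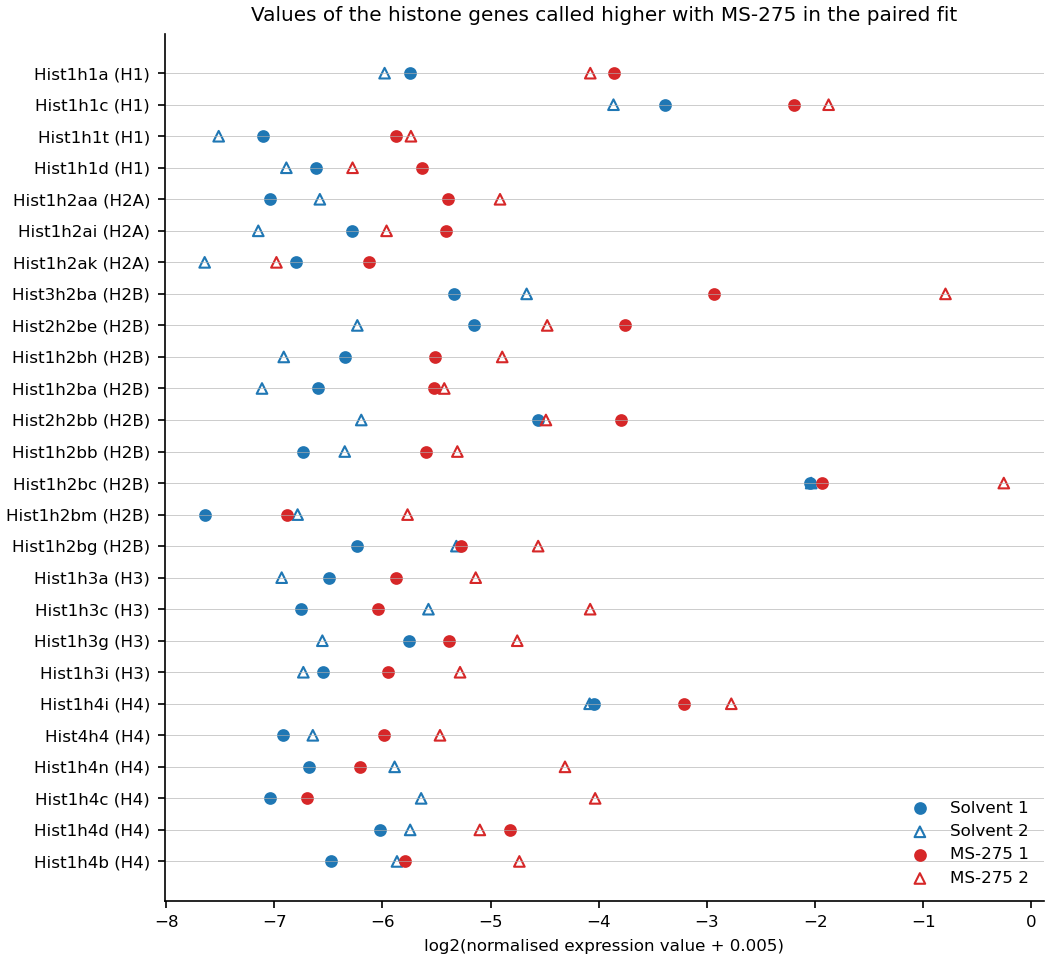
Values of the 26 histone genes called higher in the paired fit (x axis, log2 of NE + 0.005) in solvent (blue) and MS-275 libraries (red), with replicate 1 as filled circles and replicate 2 as open triangles. Hist1h2bc, Hist1h1c, Hist3h2ba and Hist1h4i reach the highest values, and for 21 of the 26 genes both red points lie to the right of both blue points. The 26 were chosen on these same values. Among all 56 tested histone genes the count was 31, against 32.3% of all tested genes.

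H2A had the lowest family median, 0.50, and 3 of 13 tested genes rose in the paired fit: Hist1h2aa, Hist1h2ai (0.00785 and 0.00205 with solvent, 0.0185 and 0.0110 with MS-275) and Hist1h2ak (0.00398 and 0 against 0.00932 and 0.00292). This share was close to the 21% of all tested genes called higher in that fit. It was 2 of 13 with median-ratio scaling and 1 of 13 with quantile normalization, where the H2A median was 0.06. Those paired fits called 3328 and 2936 of all 20336 tested genes higher. Without solvent replicate 2 the log2 fold change of Hist1h2ai was 0.60, and without MS-275 replicate 1 that of Hist1h2ak was 0.24. Hist1h2ae, the H2A gene with the highest mean log2 value over the 4 libraries but not the highest in each of them, had 0.0218 and 0.0121 against 0.0273 and 0.0263. Hist1h2al (0.0132 and 0.0114 against 0.0242 and 0.0139) and Hist1h2ag (0.00651 and 0.0145 against 0.0136 and 0.0276) did not pass either. Hist1h2af had the lowest log2 fold change of all histone genes, -0.27 ± 0.81, from 0.0338 and 0.00434 to 0.0233 and 0.00382, and was the gene lower in both pairs. Per 100 unique placements Hist1h2af had 10 and 36.7 distinct positions with solvent and 10 and 25.6 with MS-275. Hist1h2ae had fewer, 4.63 and 3.86 against 5.4 and 5.4. Hist1h2ah, at -0.01, had 0.0116 and 0.00481 against 0.00690 and 0.00847. In the Hist2 cluster, Hist2h2ab was listed at 0 in both replicates 1 and had 0.00325 and 0.00127 in replicates 2, and Hist2h2ac had 0 and 0.00164 against 0.00176 and 0.00384. Hist1h2an, with a value in 1 library only, was not tested.

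Of the H3 genes, 4 of 10 rose in the paired fit, against 21% of all tested genes, with a family median of 0.68. Hist1h3a had 0.00606 and 0.00319 with solvent and 0.0120 and 0.0234 with MS-275, Hist1h3i had 0.00568 and 0.00441 against 0.0112 and 0.0207, and Hist1h3g had 0.0135 and 0.00563 against 0.0190 and 0.0321. These 3 did not overlap between groups, with log2 fold changes of 1.21 ± 0.52, 1.03 ± 0.50 and 1.09 ± 0.63. Without solvent replicate 2 the value for Hist1h3g was 0.69. Hist1h3c overlapped, with 0.00426 and 0.0160 against 0.0102 and 0.0541, and its log2 fold change without MS-275 replicate 2 was 0.12. Hist1h3d, at 0.0221 and 0.00239 against 0.0176 and 0.0112, and Hist2h3b, at 0 and 0.00087 against 0.00375 and 0.00205, did not pass. None of the H3 calls remained with quantile normalization in the paired fit, where 0 of 10 passed. That fit called 2936 of all 20336 tested genes higher. On distinct positions with the block 0 of 3 tested H3 genes passed in limma-voom, where 23.7% of all genes were called higher. The adjusted p there was 0.230 for Hist1h3g and 0.307 for Hist1h3c.

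Of 12 tested H4 genes, 6 rose in the paired fit, against 21% of all tested genes, and the family median was 0.71. Hist1h4i had the highest H4 NE, 0.0554 and 0.0539 with solvent and 0.103 and 0.141 with MS-275, without overlap. Its log2 fold change was 1.08 ± 0.43 (adjusted p = 0.234 unpaired, 0.00414 paired). Per 100 unique placements it had 11 and 6.35 distinct positions with solvent and 17.7 and 17.4 with MS-275. Hist1h4n, with only 26 unique placements, had 34.6 and 7.69 against 46.2 and 15.4, so the rank by NE depends on mappability. Hist4h4, the gene of the Hist4 locus, had 0.00328 and 0.005 against 0.0108 and 0.0176. Hist1h4d (0.0104 and 0.0137 against 0.0303 and 0.0242) and Hist1h4b (0.00624 and 0.0122 against 0.0131 and 0.0326) did not overlap either. Hist1h4c and Hist1h4n did: their values were 0.00259 and 0.0150 against 0.00464 and 0.0561, and 0.00475 and 0.0119 against 0.00852 and 0.0453. Without MS-275 replicate 2 the log2 fold changes of these 2 genes were -0.36 and 0.08, and that of Hist1h4b was 0.38. With the block, 2 of 12 H4 genes passed with median-ratio scaling and 1 with quantile normalization. Over all 20336 tested genes 3328 and 2936 were called higher in those fits. On distinct positions with the block 1 of 4 tested H4 genes passed, Hist1h4i, where 23.7% of all genes were called higher. Hist1h4d did not pass there (limma-voom, adjusted p = 0.175). Values went in opposite directions in the pairs for Hist1h4a (0.0152 and 0.0164 against 0.00881 and 0.0593), Hist1h4h (0.0217 and 0.0254 against 0.00975 and 0.04998), Hist1h4j (0.0250 and 0.00549 against 0.0142 and 0.00966) and Hist2h4 (0.0191 and 0.0122 against 0.0114 and 0.0259). Hist1h4m was listed at 0 in every library, and 8.71% of its exon stretches occur once in the genome.

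By position, 14 Hist1 genes lie at chr13:21807632-21924065 on mm9, 5 at chr13:22126982-22135545 and 29 at chr13:23622919-24026720, with Hist1h2al apart at chr13:51298057-51298434. The median log2 fold change in the first 3 groups was 0.67, 0.72 and 0.86. In the paired fit 5 of 12, 1 of 5 and 16 of 29 tested genes passed. Over all tested genes 21% were called higher in that fit, and 1 of 5 was close to that share. The 6 Hist2 genes had a median of 0.48 with 2 called. Among 10 head-to-head H2A and H2B pairs, with between 278 and 334 bases from coding start to coding start, both genes passed in 1, Hist1h2aa with Hist1h2ba. In 5 pairs 1 gene passed: Hist1h2bc but not Hist1h2ac, Hist1h2bg but not Hist1h2ae, Hist1h2ak but not Hist1h2bn, Hist1h2ai but not Hist1h2bl, and Hist2h2be but not Hist2h2ac. Whether the 2 genes of a pair differ in their change was not tested.

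The next question was where the alignments lay relative to the stem-loop. For 52 genes with no other exon in the following 500 bases, distinct alignment positions from coding start to stem-loop numbered 302 and 246 with solvent and 674 and 566 with MS-275. Past it (starting 35 bases behind the element and over 500 bases) they numbered 294 and 345 with solvent and 534 and 604 with MS-275. The share past the stem-loop was 49.3% (95% Wilson interval 45.3 to 53.3) and 58.4% (54.4 to 62.3) with solvent, and 44.2% (41.4 to 47.0) and 51.6% (48.8 to 54.5) with MS-275. The share in MS-275 replicate 2 exceeded that in solvent replicate 1, so the groups overlapped, and with 2 against 2 the smallest two-sided exact permutation p is 0.33. The intervals cover counting error only. Within the pairs the share differed by -5.12 and -6.75 points (MS-275 minus solvent), lower with MS-275 in 2 of 2 pairs. A paired exact test on 2 pairs cannot reach a p under 0.05. Both sides of the stem-loop held more positions in the treated libraries.

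Because coding stretches are rarely unique, the counts were also divided by the number of unique placements. In the last 100 bases up to the end of the stem-loop there were 11.8 and 14.4 positions per 1000 placements with solvent and 28.5 and 30 with MS-275. In the first 100 bases behind it there were 6.44 and 9.09 with solvent and 14.5 and 15.1 with MS-275. Density dropped at the stem-loop in each library, and from there to 500 bases it stayed between 5.78 and 9.09 with solvent and between 10.1 and 15.1 with MS-275. Alignments that crossed the end of the element, with at least 10 bases before and 15 behind it, numbered 9 and 5 with solvent and 18 and 25 with MS-275, and came from 21 of the 52 genes. Of 42 genes with 20 or more positions, 4 had more per unique placement behind the stem-loop than before it: Hist1h1c, Hist1h4i, Hist1h2ah and Hist1h4j (named after their values were seen). Hist1h2ah had 12 positions before and 172 behind in all libraries together, and Hist1h4i had 46 and 201. Hist3h2ba was of the other kind, with 189 before and 54 behind, and Hist4h4 had 22 before and 0 behind. Annotated exons reach more than 100 bases past the stem-loop in 17 genes. Of these 9 rose in the paired fit, and 16 of 37 tested genes with a shorter annotated end did, against 21% of all tested genes.

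**Figure D4:**
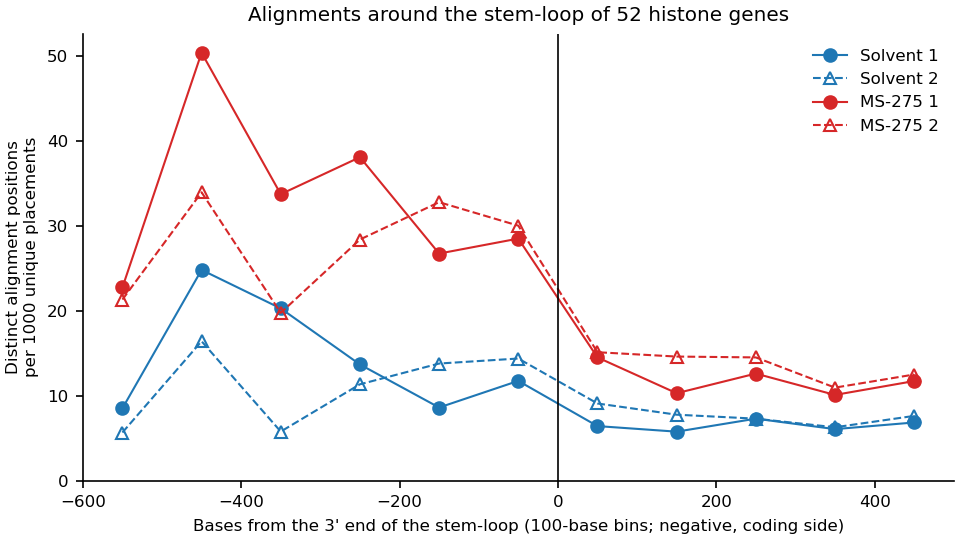
Distinct alignment positions per 1000 unique placements (y axis, both strands, not scaled for library size) in bins of 100 bases around the 3' end of the stem-loop (x axis, coding side negative) over 52 histone genes in the 4 libraries. In each library the density behind 0 is lower than in the bin before it, and both MS-275 lines run above both solvent lines except at 300 to 400 bases before the end, where the lowest treated value is 19.8 and the highest solvent value 20.3.

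Lists of genes that make, process or carry histone mRNA and protein were set beside the histone genes. Of 28 tested factors of histone mRNA synthesis and processing, 1 rose and 0 fell in the paired fit, with a median log2 fold change of -0.06. Over all tested genes 21% were called higher and 6.46% lower in that fit. The factor that rose was Hinfp, a transcription factor of H4 genes, at 0.133 and 0.0906 with solvent against 0.205 and 0.157. Slbp, the stem-loop binding protein, had 0.329 and 0.514 against 0.338 and 0.670, and Npat, the S phase coactivator of histone genes, had 0.281 and 0.190 against 0.274 and 0.158. Neither passed, and both are named for their role. Next to Hinfp the largest positive log2 fold changes were those of Snrpd3 (0.56) and Ccne2 (0.50), and the largest negative ones those of Zfp473 (-0.69), Cpsf2 (-0.54) and Cstf2 (-0.44), none of which passed.

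Of 18 tested chaperones and carriers, 1 rose and 2 fell in the paired fit. Beside this list and the S phase list stand 21% of all tested genes called higher and 6.46% lower. The S phase chaperone Asf1b rose, from 0.344 and 0.170 to 0.435 and 0.381. Anp32b fell, from 0.456 and 2.47 to 0.343 and 0.460, and so did Daxx, a chaperone of H3.3, from 0.200 and 0.187 to 0.145 and 0.0920. Ubn1 (0.45), Rbbp4 (0.32) and Nasp (-0.68) did not pass. Of 18 S phase genes, 0 rose and 2 fell, the helicase subunits Mcm2 (0.605 and 0.875 to 0.468 and 0.313) and Mcm5 (0.661 and 1.13 to 0.496 and 0.414). Mcm3 (-0.80), Prim1 (0.06) and Gins2 (0.03) did not pass. The median of the S phase list was -0.45, and 0 of 18 lay above the median of all genes, while 45 of 56 histone genes did (3 of 18 and 42 of 56 with quantile normalization). Without the block 0 of the 64 genes in these 3 lists passed. With median-ratio scaling and the block the 3 lists had 5, 5 and 11 genes lower and 0 higher. Over all 20336 tested genes that fit had 2781 lower and 3328 higher. With quantile normalization and the block the lists had 1, 5 and 8 lower and 1, 1 and 0 higher. That fit had 2961 lower and 2936 higher over all genes. On distinct positions 6 of 18 S phase genes were lower without the block and 14 of 18 with it, and 0 were higher. Over all genes tested this way 7.53% and 21.1% were lower, and 11.8% and 23.7% were higher.

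Markers of the cells in the dish moved as well. Of 10 ESC markers, 0 rose and 4 fell in the paired fit. Of 10 fibroblast markers, listed because the line is feeder-dependent, 6 rose and 0 fell. Over all tested genes 21% were called higher and 6.46% lower in that fit. With the block, 5 fibroblast markers were higher and 1 lower with median-ratio scaling, 4 and 2 with quantile normalization, and 5 and 2 of 9 on distinct positions. Col3a1 (-0.52) and Dcn (-0.72) had lower values in both pairs. The ESC list had 6, 5 and 7 lower in those fits and 0 higher. In the same order, 3328 of all 20336 tested genes were higher and 2781 lower, then 2936 and 2961. On distinct positions 23.7% and 21.1% of 17582 genes were higher and lower. The summed NE of the fibroblast list was 0.310 and 0.272 with solvent and 0.610 and 0.644 with MS-275, and that of the ESC list 6.08 and 23.2 against 4.83 and 13.6. No marker was at 0 in any library. The part of these cells in the histone values was not tested, and in bulk RNA more cells of a type and more RNA per cell cannot be told apart.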

How the data were processed

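RNA-seq of 4 libraries was used, 2 with solvent and 2 with 5 µM MS-275 for 24 h, grouped by their titles. As deposited by the authors, 36 base reads from the Genome Analyzer IIx were placed on mm9, and Genomatix software gave 1 normalized expression signal for each gene. The aligner, its version and the formula are not given in the sources used here. The control alignments are labelled ETOH and the study names DMSO for other assays, so the text says solvent. Tables of the authors' ratios between conditions were not used.

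Values were fitted with limma 3.58.1 (R 4.3.3, lmFit, eBayes with trend) on log2(value + 0.005) for genes of at least 0.001 in at least 2 libraries, with Benjamini-Hochberg adjustment over 20336 genes. The members and lists were chosen with earlier results of these data known. Replicate numbers pair the libraries through the authors' own marks, OLD and NEW, which go by the same numbers in both conditions. Values and alignments of 1 number carry opposite marks: the values of replicate 1 are headed OLD, and the alignments deposited with replicate 1 are marked NEW. The authors' ratios were formed within these pairs. What OLD and NEW refer to is not given in the sources used here. The check was the correlation of deviations from the group means between libraries of the same number, 0.764 over 20336 genes and 0.618 over 56 histone genes. Blocked values are therefore given beside the unpaired ones. Named histone genes were the 3 highest per family, the 5 largest changes in each direction, those passing with the block, the Hist2 to Hist4 genes and the testis genes. For partner lists they were the genes passing without the block (none did) and the 3 largest changes in each direction, of which 1 is not reported here.

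Alignments (35 bases, 9122347 to 10973569 distinct positions per library) were counted by their middle base on GENCODE M1 exons. Genes with at least 10 distinct positions in at least 2 libraries entered limma-voom. Python 3.11.15, numpy 2.4.6, pandas 2.3.3, scipy and matplotlib 3.10.9 were used. The fit was tested on simulated data. Annotated histone genes without a row in the lists, such as Hist3h2a, were not analysed in the comparisons.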

Additional observations from a re-analysis of the deposited data

Results flagged for a closer look

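Alignments were also found on annotated clustered histone genes that have no row in the expression lists. They stand here because their signal lay outside the values compared and above that of both control libraries. Hist3h2a, an H2A gene of the Hist3 cluster, had 15.5 and 16.6 distinct alignment positions per 1000000 of the library with solvent and 35.2 and 40.7 with MS-275 (170 and 162 against 321 and 444 positions). Hist2h3c2, an H3 gene with near-identical copies in the same cluster, had 1.0 and 1.64 with solvent and 2.52 and 3.57 with MS-275. Neither difference was tested by itself.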

How the results depend on the processing

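The count of histone genes called higher depended on the pairing. It was 0 without the replicate block, 26 with it, and 22, 22, 18, 18 and 11 with the block and, in turn, a pseudocount of 0.001, one of 0.02, a mean value of at least 0.01, median-ratio scaling and quantile normalization. The counts of all genes called higher were, in the same order, 1, 4277, 4216, 3790, 2751, 3328 and 2936. They are out of 20336 tested, or 14740 with the mean value of at least 0.01. For histone genes, a mean value of at least 0.01 alone gave 2 of 36. Limma-voom on distinct positions gave 5 of 24 and, with the block, 10. Among the members with enough distinct positions for that count (an alternative added after seeing the data), 15 of 24 passed on the values with the block. Hist1h1t, Hist1h2ai and Hist1h2bh were among the 15 and had enough positions only with MS-275. No histone gene was lower in any fit. The median log2 fold change of 0.68 became 1.10 and 0.37 with pseudocounts of 0.001 and 0.02, 0.23 with quantile normalization and 0.94 on distinct positions. Leaving out 1 library gave 0 to 1 called gene and a median of 0.57 to 0.91. The lone library left in a group is assumed to vary like the others, and such a fit carries the offset between replicates.

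Of the 64 partner genes 2 were higher and 4 lower with the block, against 21% and 6.46% of all tested genes. With the block and a pseudocount of 0.001 the partner counts were 1 and 4, and with 0.02 they were 2 and 4. With the block they were 1 and 4 with a mean of at least 0.01, 0 and 21 with median-ratio scaling, and 2 and 14 with quantile normalization. On distinct positions 0 were higher and 11 lower without the block, and 2 and 33 with it. Over all genes tested this way 11.8% and 23.7% were higher and 7.53% and 21.1% lower. The partner median of -0.14 became -0.42 with median-ratio scaling, and -0.33 and -0.32 on distinct positions without and with the block. Without 1 library it ranged from -0.29 to -0.12.

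The mean share past the stem-loop was lower with MS-275 by -5.94 percentage points as a signed difference, by -9.61 with every alignment counted and by -4.48 in a window of 200 bases. Without Hist1h1c (added after seeing the data) it was -7.35. Without solvent replicate 1 it was -10.46 and without solvent replicate 2 -1.41, the ends of the range.

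Of 717 refits of the 41 named and tested histone genes, 26 in 10 genes changed sign, and no such value passed. With 1 library left out the log2 fold change ranged from -1.296 to 0.759 for Hist1h2af, from -0.386 to 0.368 for Hist1h2ah, from -0.502 to 1.373 for Hist1h3d, from -0.589 to 1.631 for Hist1h4a, from -0.355 to 2.308 for Hist1h4c, from -0.951 to 0.948 for Hist1h4h, from -0.841 to 0.676 for Hist1h4j, from -0.559 to 0.163 for Hist2h2ab and from -0.314 to 0.599 for Hist2h4. Hist1h2ah became 0.019 with a pseudocount of 0.001 and Hist1h4h 0.068 with 0.02, with or without the block. Quantile normalization gave -0.10 for Hist1h2al and -0.33 for Hist2h4, median-ratio scaling -0.056 for Hist2h4, and distinct positions -0.34 and, with the block, -0.30 for Hist2h4. The causes were not tested.

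Depth limits the low members. Between 24 and 43 of the 58 rest on fewer than 10 distinct positions in a library.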

Other observations

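Further annotated genes without a row in the lists had alignments in each library. Hist1h1e, a linker histone gene, had 16 and 6 distinct positions with solvent and 22 and 13 with MS-275. Hist1h2be had 16 and 19 against 32 and 16, Hist2h3c1 had 79 and 195 against 131 and 237, and Hist1h2aj had 5 and 1 against 2 and 1. Per 1000000 distinct positions, Hist2h3c1 had 7.20 and 19.9 with solvent and 14.4 and 21.7 with MS-275. Hist1h2be had 1.46 and 1.94 against 3.51 and 1.47, and Hist1h1e had 1.46 and 0.613 against 2.41 and 1.19. Hist1h2aj had 0.456 and 0.102 against 0.219 and 0.0916. The groups of each of these genes overlapped.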
